A study of Mus musculus with 32 samples.

Results

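BC57 is a mouse bladder cancer cell line. Its harvested cell pellet was divided, and formalin-fixed paraffin-embedded (FFPE) RNA from 1 portion, run at 50 ng with the SensationPlus kit, was compared with fresh frozen (FF) RNA from the other portion, run at 100 ng with the GeneChip WT Plus kit. There were 2 arrays in each group, taken by their labels as 4 of the 32 arrays of the series, and all 21237 probe sets were used. The FFPE portion was fixed in buffered formalin for 24 h, and its RNA came from 10 sections of 5 µm with the RNeasy FFPE kit. The FF portion was frozen in liquid nitrogen and extracted with the RNeasy mini kit. Both came from cells grown in DMEM with 10% serum, so the 2 groups share 1 cell line and 1 pellet and differ in fixation, extraction kit, amplification kit and input together; these cannot be told apart here. The series also holds normal urothelium of 9 mice under the same conditions, and FFPE and FF RNA of both sources at 2 ng and 0.5 ng with the GeneChip WT Pico kit.

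Formalin links RNA to protein and to itself and leaves it modified and broken, so the RNA recovered from paraffin blocks is shorter than frozen RNA and is copied less well by reverse transcriptase. Amplification kits for arrays differ in how they prime, extend and label the copies, and the series asks how these choices change what an array reports. The design text names WT Plus on frozen RNA as the reference. BC57 stands here for a culture of a single cell line, without the mixture of cells a tissue holds.

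The values are log2 expression values that the authors made by RMA, a procedure that corrects background, brings arrays to a common scale and summarizes probes. Probe sets are identified by Ensembl mouse gene IDs without names, and 0 of the identifiers could be named from the reference table at hand. Gene groups and cell type markers were therefore not examined, the label BC57 was not checked against markers, and 4 probe sets are given by identifier. The labels give no separate cultures or extractions behind duplicate arrays, so p-values measure only the spread between these arrays, which may be technical. Arrays have no read depth, and their number limits the precision.

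The 4 arrays had close but not equal distributions. Array medians were 5.45 and 5.43 in BC57 FFPE 50 ng and 5.35 and 5.37 in BC57 FF 100 ng, and the SDs over probe sets were 1.87 and 1.87 in FFPE 50 ng and 1.99 and 1.98 in FF 100 ng. The FFPE arrays thus had a higher middle and a narrower range. The 5th percentile was 2.61 and 2.56 in FFPE 50 ng, against 2.42 and 2.40 in FF 100 ng, and the 95th percentile was 8.65 and 8.60 in FFPE 50 ng, against 8.78 and 8.73 in FF 100 ng. With 2 arrays a group, the smallest 2-sided exact permutation p is 0.333, so these values are given without a test.

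Duplicates differed more in FFPE 50 ng than in FF 100 ng. Pooled over probe sets as a root mean square, the duplicate SD was 0.16 in FFPE 50 ng and 0.11 in FF 100 ng. In FFPE 50 ng 75 probe sets were at least 2-fold apart between the duplicates, and in FF 100 ng 14 were. The spread was highest in the dimmest quintile of probe sets, at 0.18 in FFPE 50 ng and 0.13 in FF 100 ng.

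The ranking of probe sets was largely retained. Group means correlated between FFPE 50 ng and FF 100 ng at r = 0.969 over probe sets (Spearman's rho 0.974), which is a description since probe sets are not replicates. For FF 2 ng with WT Pico, r with FF 100 ng was 0.978, and for FFPE 2 ng with WT Pico it was 0.941. For urothelium FF 100 ng, another RNA source, r with BC57 FF 100 ng was still 0.898. Of the 212 brightest probe sets of FFPE 50 ng, 150 (70.8%) were also among the 212 brightest of FF 100 ng. Of the 2124 brightest, 1662 (78.2%) were shared.

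Against this, 1000 probe sets changed by at least 2-fold between BC57 FFPE 50 ng and BC57 FF 100 ng (limma with Benjamini-Hochberg adjustment; a call needed an adjusted p below 0.05 and a log2 change of 1 or more in either direction). They were 4.71% of those tested. Both groups came from 1 pellet of 1 cell line, and bulk RNA gives no values per cell. Of the 1000, 476 (2.24%) were higher and 524 (2.47%) lower in FFPE 50 ng. The percentage of calls that were higher depended on scaling: it was 47.6% for the deposited values, 36.5% once arrays were centred on their medians and 52.7% once they were quantile normalized, so neither direction is the majority under each scaling. The median change of all probe sets was 0.098, the quartiles were -0.17 and 0.29, and the range from the 1st to the 99th percentile ran from -1.31 to 1.36.

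**Figure D1:**
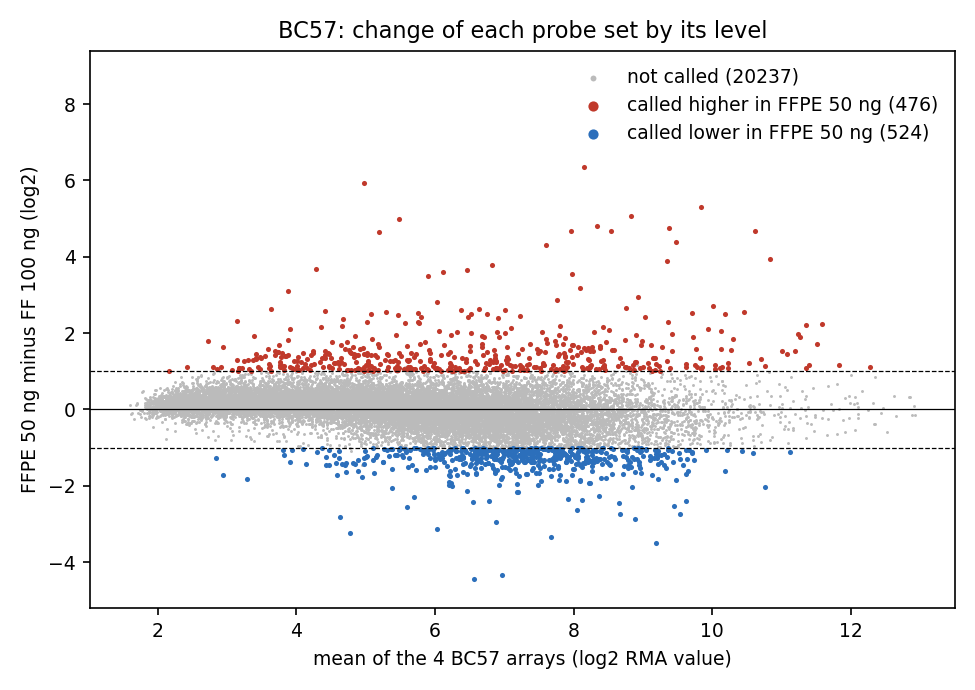
Each point is 1 of 21237 probe sets, placed by its mean over the 4 BC57 arrays (x, log2 RMA value) and its FFPE 50 ng minus FF 100 ng change (y, log2); dashed lines mark 2-fold. The 476 rises spread over all levels and reach 6.34, while the 524 falls lie mostly at middle and high levels and reach -4.45.

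Most of the changes were between 2-fold and 4-fold, and the large ones were more often rises. Among rises, 405 were under 4-fold, 48 between 4-fold and 8-fold and 23 larger. Among falls, the counts were 495, 23 and 6. The median change was 1.29 for rises and -1.25 for falls. By adjusted p alone 9294 probe sets passed (43.8%), with 5147 higher and 4147 lower in FFPE 50 ng, so the 2-fold threshold sets the count: of the 1004 probe sets that changed 2-fold, 4 did not pass the adjusted p.

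The groups did not overlap at any of the 1000 calls. In this comparison they also did not overlap at 75.7% of all probe sets, so lack of overlap alone did not single out the calls. A stricter count asked for both FFPE arrays to lie at least 2-fold beyond both FF arrays. It held for 287 probe sets upward and 358 downward, of which 287 and 357 were called. The other 356 calls had a smaller gap between the nearest arrays of the 2 groups, and the smallest was 0.27.

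Rises started from all levels: by quintile of FF 100 ng level there were 78, 93, 88, 92 and 125 from the dimmest to the brightest. In the median called rise the level was 7.34 in FFPE 50 ng and 5.71 in FF 100 ng, where the medians of all probe sets were 5.43 in FFPE 50 ng and 5.36 in FF 100 ng. Of the 476 rises, 261 were above the median of all probe sets in both groups, 102 below it in both, and 113 crossed it. Falls were bright: the median level was 6.61 in FFPE 50 ng and 7.91 in FF 100 ng, and 422 of the 524 were above the median in both groups. Only 19 falls were below it in both groups, and the lowest levels leave little room for a 2-fold fall. FFPE duplicates were at least 2-fold apart at 17 rises and 8 falls, and FF duplicates at 1 of each.

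The largest rise was ENSMUSG00000064347. Its values were 11.12 and 11.54 in BC57 FFPE 50 ng, against 4.64 and 5.33 in BC57 FF 100 ng. Both FFPE arrays stood far above both FF arrays, and the level moved to the 99.7th percentile of probe sets in FFPE 50 ng, against the 43.3rd in FF 100 ng. The log2 change was 6.34 ± 0.29 (SE, limma adjusted p = 1.56e-05), an 81.2-fold difference.

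ENSMUSG00000089929 followed, with 8.06 and 7.83 in FFPE 50 ng against 1.95 and 2.09 in FF 100 ng. In FF 100 ng the level was at the 1.13th percentile, among the dimmest probe sets and may be near background, for which no detection call was used. The change of the RMA values was 5.93 ± 0.29 (SE, limma adjusted p = 1.79e-05); the SE covers the spread between arrays and not the uncertainty of a value near background, so the size of the change is not settled. In FFPE 50 ng it reached the 90.3rd percentile.

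The largest fall was ENSMUSG00000106387, with 3.46 and 5.23 in FFPE 50 ng against 8.83 and 8.75 in FF 100 ng. The FFPE duplicates were far apart, yet both were below both FF arrays. The change was -4.45 ± 0.69 (SE, limma adjusted p = 0.00181), and it was -5.33 without FFPE replicate 2 and -3.57 without FFPE replicate 1. ENSMUSG00000076891 had 4.67 and 4.92 in FFPE 50 ng against 9.31 and 8.95 in FF 100 ng, with duplicates close together. Its change was -4.34 ± 0.22 (SE, limma adjusted p = 2.13e-05).

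At these 4 probe sets the SensationPlus arrays stood apart from arrays of the other kits. They were chosen for the largest changes between SensationPlus and WT Plus arrays, which favours such a position, so this is a description. SensationPlus was run only on FFPE RNA at 50 ng, so kit and input cannot be told apart. ENSMUSG00000089929 averaged 7.95 in BC57 FFPE 50 ng with SensationPlus, against 2.97 in FFPE 2 ng and 2.96 in FFPE 0.5 ng with WT Pico. ENSMUSG00000064347 averaged 5.73 ± 0.52 in BC57 FFPE 2 ng and 2.95 ± 0.17 in BC57 FF 2 ng (SD, n = 3), a called rise of 2.79 that was smaller than with SensationPlus and WT Plus. The direction turned round for the 2 falls. ENSMUSG00000106387 averaged 8.98 ± 0.17 in BC57 FFPE 2 ng and 7.40 ± 0.0047 in BC57 FF 2 ng (SD, n = 3), a rise of 1.58 ± 0.32 (SE, limma adjusted p = 0.00129). ENSMUSG00000076891 averaged 9.55 ± 0.16 and 7.70 ± 0.15 in the same groups, a rise of 1.85 ± 0.12 (SE, limma adjusted p = 8.71e-07).

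**Figure D2:**
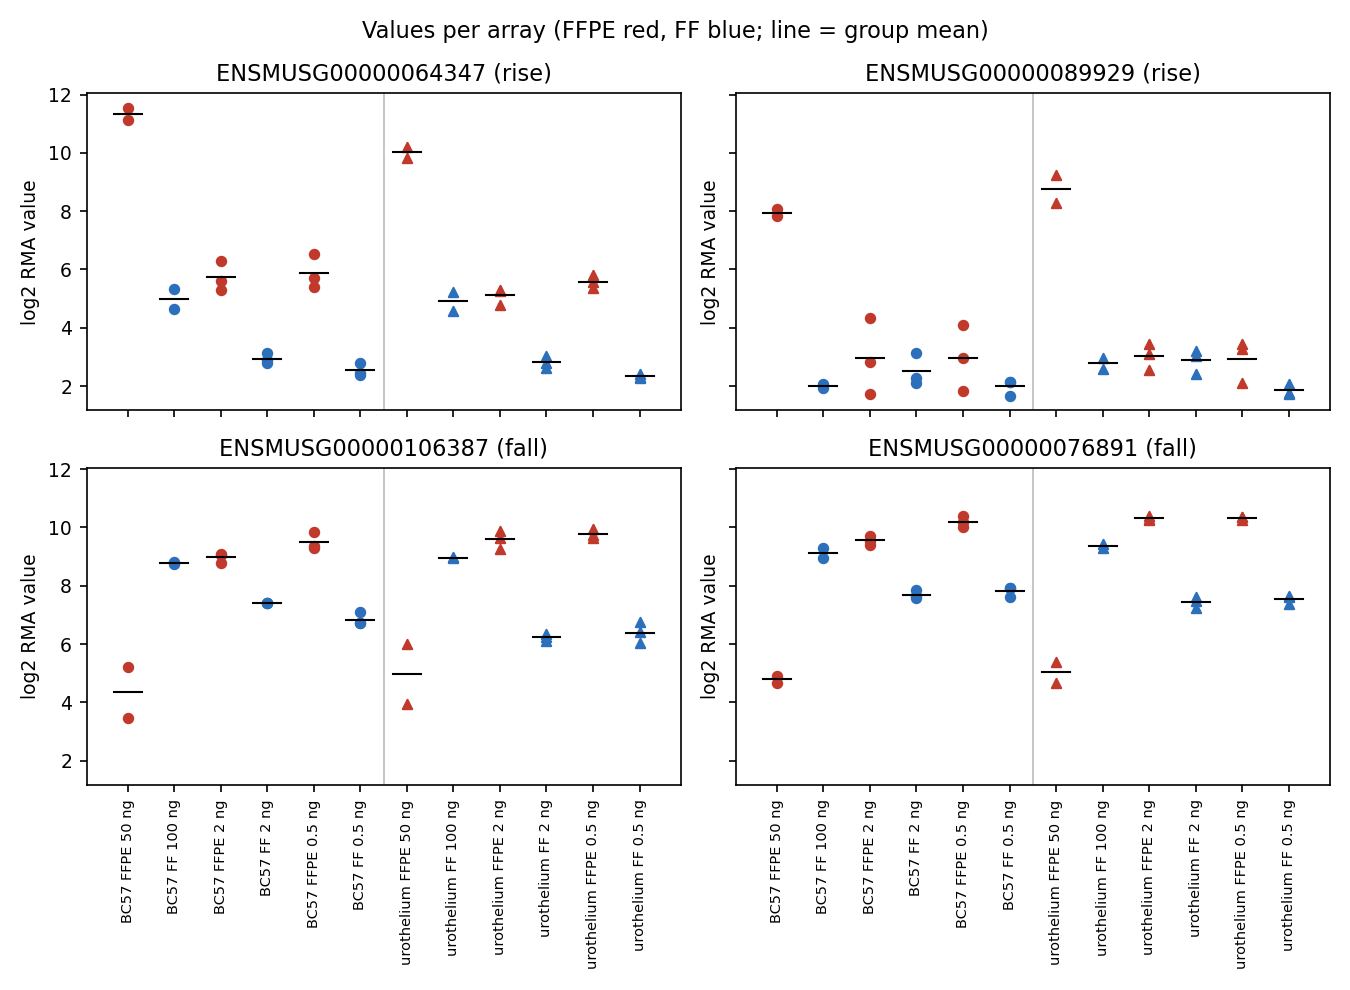
Values of the 2 largest rises and 2 largest falls on each of the 32 arrays (log2 RMA values; circles BC57, triangles urothelium, red FFPE, blue FF, lines group means). In BC57 and in urothelium the FFPE 50 ng arrays are above all other groups for the rises and below all other groups for the falls.

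The change went with brightness. When probe sets were divided into quintiles by their level in the BC57 FF 2 ng arrays, which take no part in the comparison, the median change was 0.19, 0.18, 0.11, -0.07 and -0.17 from the dimmest to the brightest. Dim probe sets were thus slightly higher and bright ones slightly lower in FFPE 50 ng. The same quintiles in the WT Pico comparison, FFPE 2 ng minus FF 2 ng, had 0.48, 0.50, 0.35, -0.09 and -0.61, but there the FF 2 ng arrays are part of the contrast. Grouping by the FF 100 ng level gave 0.19 and -0.25 at the ends of the range for BC57 FFPE 50 ng minus FF 100 ng. After quantile normalization the end quintiles by FF 2 ng level had -0.0035 and -0.049, so the trend was not seen under that scaling.

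Called falls became steadily more frequent with brightness, while called rises had no steady trend and were most frequent in the brightest quintile. By FF 2 ng level, the number called lower in FFPE 50 ng was 1, 17, 60, 166 and 280 from the dimmest quintile to the brightest. The number called higher was 77, 101, 81, 72 and 145. These counts are for the deposited values. Falls among dim probe sets were rare. The dimmest quintile had a median level of 2.83 in FF 2 ng, and the lowest value on any array was 1.23. This left little room for a 2-fold fall, and how far it sets the counts of falls was not tested. The brightest quintile had 10.0% of its probe sets called, and the dimmest 1.84%, against 4.71% over all.

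**Figure D3:**
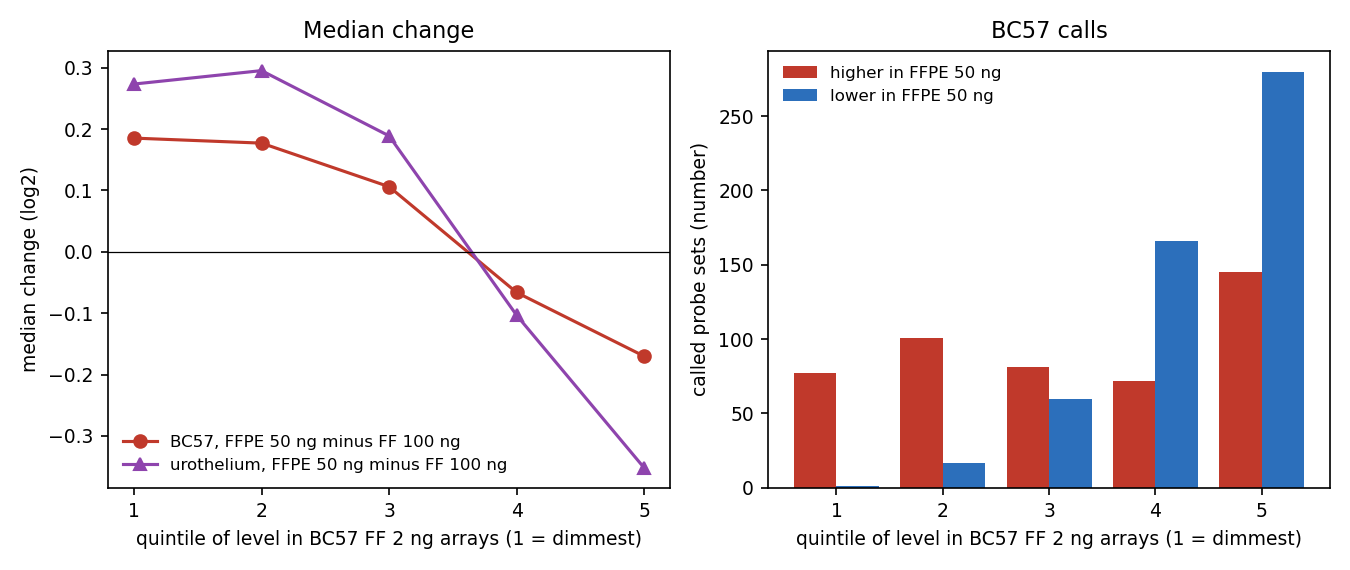
Left, median FFPE 50 ng minus FF 100 ng change (log2) by quintile of level in BC57 FF 2 ng arrays, for BC57 (circles) and urothelium (triangles). Right, number of called probe sets higher (red) and lower (blue) in BC57 FFPE 50 ng per quintile: falls increase from 1 to 280 with brightness, while rises stay between 72 and 145. The dimmest probe sets have little room for a 2-fold fall.

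The position of each group among all 16 BC57 arrays differed between rises and falls. For 270 of the 476 rises (56.7%) both SensationPlus arrays were above the other 14 BC57 arrays, and for 114 (23.9%) both WT Plus arrays were below the other 14. Falls had the opposite pattern. For 332 of the 524 falls (63.4%) both WT Plus arrays were above all other BC57 arrays, and for 111 (21.2%) both SensationPlus arrays were below all others. Both held for 32 rises and 30 falls, and neither for 124 rises and 111 falls. Rises were thus more often high values in the SensationPlus arrays, and falls more often high values in the WT Plus arrays.

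Over all probe sets, SensationPlus arrays were outermost above in 6.04% and below in 5.19%, and WT Plus arrays above in 9.45% and below in 7.63%. The calls were chosen by the same arrays, so these shares carry no test. After quantile normalization the shares were 56.3% of rises with SensationPlus above all others and 56.7% of falls with WT Plus above all others. After centring they were 68.4% and 61.2%. In urothelium, the same kit was outermost on the same side for 168 of the 270 rises and 237 of the 332 falls. Over all probe sets, SensationPlus arrays were above all other urothelium arrays in 5.15% and WT Plus arrays in 9.85%.

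Urothelium under the same 2 conditions showed much of the change seen in BC57. These arrays come from another RNA source and none is shared. There, 1486 probe sets were called, 7% of those tested, with 549 higher (2.59%) and 937 lower (4.41%) in FFPE 50 ng. Of the 1000 BC57 calls, 603 (60.3%) were called in urothelium in the same direction and 0 in the opposite one. They made up 40.6% of the urothelium calls. For rises the share was 249 of 476 (52.3%), and for falls 354 of 524 (67.6%).

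The median sizes lay close together. The median change in urothelium of the BC57 rises was 1.04, against their 1.29 in BC57, and that of the BC57 falls was -1.25 in both. Single probe sets varied more: the quartiles in urothelium were 0.68 and 1.64 for rises and -1.56 and -0.90 for falls. The probe sets were chosen by their BC57 values, so these sizes are a description. The sign was shared by 468 of the 476 rises and 500 of the 524 falls. Large changes were most often called the same way in urothelium. This held for 27 of the 29 probe sets over 8-fold in BC57 (93.1%). It held for 63 of 71 between 4-fold and 8-fold (88.7%) and 513 of 900 under 4-fold (57.0%). A call in urothelium needed only 2-fold, which a large change can pass even when it is much smaller there. The difference from urothelium was called at 27.6%, 15.5% and 9.67% of these classes. Both sets of shares depend on the BC57 size that set the classes. Over all probe sets the changes correlated at r = 0.793 (rho 0.742), given as a description. After quantile normalization 63.1% of the BC57 calls were shared with urothelium and after centring 64.1%.

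All 4 named probe sets were also called in urothelium in the same direction. For ENSMUSG00000089929 the change in urothelium was 5.98 ± 0.29, with 8.27 and 9.25 in FFPE 50 ng and 2.59 and 2.97 in FF 100 ng. ENSMUSG00000076891 had 4.68 and 5.39 in urothelium FFPE 50 ng against 9.43 and 9.31 in urothelium FF 100 ng, a change of -4.34 ± 0.22. ENSMUSG00000106387 had 3.94 and 5.99 in urothelium FFPE 50 ng, again far apart, against 8.99 and 8.94 in FF 100 ng. ENSMUSG00000064347 rose by 5.11 ± 0.29 in urothelium, where it was 34.6-fold higher, against 81.2-fold in BC57. The difference of 1.23 ± 0.41 between the 2 changes, a 2.35-fold gap, did not pass the test (limma adjusted p = 0.103).

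Tested directly, the change differed between BC57 and urothelium at 325 probe sets, 1.53% of those tested (limma interaction). Of these, 186 (0.876%) had a more positive change in BC57 and 139 (0.655%) a more negative one; after quantile normalization 48.6% of 220 were more positive. The change was larger in size in BC57 at 119 and in urothelium at 206. Among the BC57 calls the difference was called at 56 rises and 50 falls, of which 46 rises and 45 falls were stronger in BC57. The remaining 894 BC57 calls were not called different, which does not show that the change was equal. A further 73 of the 325 were called in neither cell type alone.

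With WT Pico at equal input, FFPE and FF RNA of BC57 gave calls that overlapped only in part, though most signs were shared. FFPE 2 ng minus FF 2 ng, on 3 arrays each that share none with the comparison above, called 1754 probe sets (8.26%), with 578 higher (2.72%) and 1176 lower (5.54%) in FFPE 2 ng, and the median change of all probe sets was 0.28. The share of calls that were higher was 33.0%. After centring 10.1% were higher and after quantile normalization 43.9%. Fixation and extraction differ in both comparisons, but kit and input change only in that of SensationPlus with WT Plus. Of the 1000 calls from SensationPlus and WT Plus, 296 (29.6%) were called with WT Pico in the same direction, which is 16.9% of the WT Pico calls. Another 36 were called in the opposite direction, 19 rises and 17 falls. The sign with WT Pico was the same for 387 of the 476 rises (81.3%) and 456 of the 524 falls (87.0%).

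The median change with WT Pico was 0.55 for the 476 rises and -0.73 for the 524 falls, against 1.29 and -1.25 with SensationPlus and WT Plus. The probe sets were chosen by the SensationPlus/WT Plus values, so the gap between these medians is a description. The same limit holds for the levels, since the FFPE 50 ng and FF 100 ng values chose the rises and falls. For rises the median level was 7.34 in FFPE 50 ng, 6.47 in FFPE 2 ng, 5.63 in FF 2 ng and 5.71 in FF 100 ng. For falls it was 6.61 in FFPE 50 ng, 6.52 in FFPE 2 ng, 7.35 in FF 2 ng and 7.91 in FF 100 ng. In these medians the kits were further apart on FFPE RNA for rises and on FF RNA for falls, which is a description. Over all probe sets the changes correlated at r = 0.458 (rho 0.459), given as a description.

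The difference between the SensationPlus/WT Plus change and the WT Pico change was called at 1492 probe sets, 7.03% of those tested, with 926 (4.36%) more positive for SensationPlus/WT Plus and 566 (2.67%) more negative. The share more positive was 62.1% for the deposited values, 83.9% with centred arrays and 53.9% with quantile normalized ones. It was called at 196 of the 476 rises (41.2%) and 127 of the 524 falls (24.2%). The remaining 677 calls were not called different, which does not show that the change was equal. By size, it was called at 28.1% of the calls under 4-fold, 59.2% of those between 4-fold and 8-fold and 96.6% of the 29 over 8-fold. The SensationPlus/WT Plus change, which chose the calls and set the size classes, is also a term of the difference. These shares are therefore descriptions.

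Of the 6 falls over 8-fold, 4 were called as rises with WT Pico and 1 as a fall, and all 6 were called as falls in urothelium. Of the 23 rises over 8-fold, 12 were called as rises with WT Pico and 0 as falls, with a median change of 1.01 against 4.39. Their median change in urothelium was 4.22. The named probe sets were chosen by their SensationPlus/WT Plus change. That change is a term of the difference from WT Pico, so the sizes and p-values depend on the choice. Among them the difference was -6.19 ± 0.20 for ENSMUSG00000076891 (SE, limma adjusted p = 9.81e-08) and -6.03 ± 0.51 for ENSMUSG00000106387 (SE, limma adjusted p = 2.1e-05). It was 5.47 ± 0.80 for ENSMUSG00000089929 (SE, limma adjusted p = 0.000606), whose values outside SensationPlus were all dim, so that its size is uncertain.

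**Figure D4:**
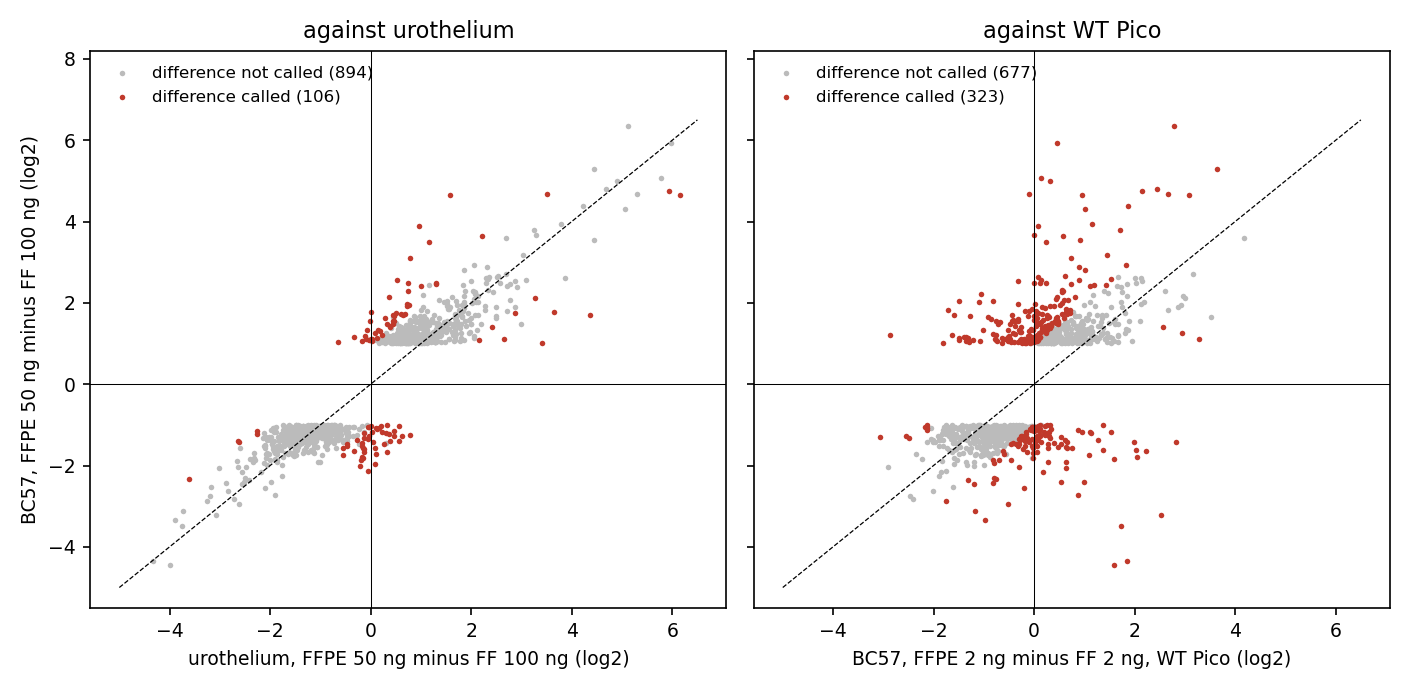
The 1000 probe sets called in BC57 FFPE 50 ng minus FF 100 ng (y, log2 change), against their change in urothelium under the same conditions (left x) and in BC57 FFPE 2 ng minus FF 2 ng with WT Pico (right x); red marks a called difference between the 2 changes, and the dashed line is equality. Differences were called at 106 probe sets against urothelium and 323 against WT Pico, and with WT Pico some points lie on the opposite side of 0.

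Set side by side, 83 rises and 133 falls were called in all 3 comparisons. Another 166 rises and 221 falls were called in BC57 and urothelium with SensationPlus and WT Plus but not in BC57 with WT Pico. In the BC57 comparisons with both kit pairs, but not in urothelium, 27 rises and 53 falls were called. The other 200 rises and 117 falls were called in neither. Of these, both tests of a difference were passed by 22 rises and 8 falls. Neither difference was called at 255 rises and 357 falls.

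Among probe sets higher in BC57 than in urothelium, a larger share was called lower in FFPE 50 ng than among all probe sets. Probe sets that differ between the cell types were found on the FF 2 ng arrays with WT Pico, which are outside the comparison: 1621 were higher and 1559 lower in BC57 than in urothelium. Of the 1621 BC57-high probe sets, 150 (9.25%) were lower in BC57 FFPE 50 ng and 60 (3.70%) higher, against 2.47% lower and 2.24% higher over all. Their median level was 7.42 in FFPE 50 ng and 7.64 in FF 100 ng. Of the 1559 BC57-low probe sets, 28 (1.80%) were lower and 16 (1.03%) higher. These were dimmer, with a median level of 5.31 in FFPE 50 ng and 5.30 in FF 100 ng. BC57-high probe sets are bright, so the shares were also taken within the brightest quintile of FF 2 ng. There 9.16% of 1026 BC57-high probe sets were lower and 4.39% higher. Of 164 BC57-low probe sets 5.49% were lower and 1.83% higher. Of 3058 not called different between the cell types 5.79% were lower and 3.17% higher. After quantile normalization 5.74% of the BC57-high probe sets were lower and 3.27% higher, against 1.48% and 1.65% of all. These shares are descriptions and were not tested.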

How the data were processed

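The deposited log2 expression values of 32 arrays (21237 probe sets, 1.23 to 13.22) were made by the authors with RMA; the submitters' processing notes also list affy. Versions, array design, annotation build and whether all arrays were normalized jointly are not stated in these sources. RMA compresses dim values, so changes from background are uncertain. Groups came from the titles. In R 4.3.3 with limma 3.58.1 (lmFit, eBayes with an intensity trend, 2-sided, Benjamini-Hochberg over all probe sets), the BC57 change and its difference from urothelium were fitted on 8 arrays, the WT Pico change and the kit difference on 10, and BC57 against urothelium on the FF 2 ng arrays. Calls needed adjusted p under 0.05 and a log2 change of at least 1. The fits were tested on simulated data. No pair of arrays was identical. The members, lists and tests were chosen with earlier results of these data known. The rule for named genes (largest called changes, and members of 34 gene lists) needs gene names; its first 2 rises and 2 falls are given by identifier, and the gene lists, markers and transcript features were not used. Alternatives were scaling, filters, arrays in the fit, a replicate block, the intensity trend and leaving out arrays.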

Additional observations from a re-analysis of the deposited data

Results flagged for a closer look

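The FFPE 50 ng minus FF 100 ng change differed between BC57 and urothelium at 325 probe sets by the interaction test. The FFPE minus FF change in BC57 differed between SensationPlus/WT Plus and WT Pico at 1492 probe sets by the same kind of test. Each of the 4 probe sets given by identifier passed the second test: the SensationPlus/WT Plus change minus the WT Pico change was 3.55 for ENSMUSG00000064347, 5.47 for ENSMUSG00000089929, -6.03 for ENSMUSG00000106387 and -6.19 for ENSMUSG00000076891. The values of ENSMUSG00000089929 outside SensationPlus may be near background, so its size is uncertain. All 4 were chosen by their SensationPlus/WT Plus change in BC57, which is a term of the second test, so these sizes depend on the choice. None of the 4 passed the test of a difference from urothelium. Groups of 2 or 3 arrays are too small for a test of single outlying arrays.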

How the results depend on the processing

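The count of 1000 called probe sets was 995 to 1113 when single arrays of the 8 were left out, 996 on the 4 BC57 arrays alone, and 664 after quantile normalization, 638 of them shared with the 1000 in the same direction. Without a fold threshold, 9294 probe sets passed in BC57 and 2172 for the difference from urothelium. The 325 differences from urothelium became 263 to 363 without single arrays and 175 among probe sets brighter than the median. Quantile normalization gave 933 calls for WT Pico (1754 as deposited) and 930 for the kit difference (1492); without single arrays these counts were 1607 to 1968 and 1356 to 1586. Under the other settings the total of each comparison stayed within 1.5 times of that as deposited, but counts by direction did not. With centred arrays there were 249 rises and 2206 falls with WT Pico (578 and 1176 as deposited), and 1489 more positive and 285 more negative kit differences (926 and 566). Among probe sets brighter than the median there were 299 rises in BC57 (476), 209 rises with WT Pico (578), 277 more negative kit differences (566) and 51 more negative differences from urothelium (139). After quantile normalization there were 314 falls in BC57 (524), 523 falls with WT Pico (1176), 501 more positive kit differences (926) and 107 more positive differences from urothelium (186). The 4 named probe sets stayed called in their direction wherever they were tested; ENSMUSG00000089929 was removed by the filter on dim probe sets.

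Deviations of same-numbered arrays of BC57 FFPE 50 ng and FF 100 ng correlated at 0.13, and nothing in the labels says that a number marks a shared batch. With the replicate block there were 998 calls, 336 differences from urothelium, 1755 WT Pico calls and 1504 kit differences. Brightness quintiles by FF 2 ng level were chosen after seeing the data. Signal over background was not available per probe set, so which dim probe sets were detected is not known.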
